A study of Mus musculus with 6 samples.

Results

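Gene-dense introns were defined by genomic position and by the number of genes with measured introns around them. The mouse genome was divided into windows of 1 Mb, introns were placed by their lower coordinate, and a window was called gene-dense when the introns measured in all 4 total RNA libraries belonged to 15 or more distinct genes. Of 68322 such introns, 17321 (25.4%) lay in the 142 gene-dense windows, which were 7.76% of the 1830 windows with introns and held up to 38 genes each (median 19). They were contrasted with 11394 introns in 831 gene-poor windows of 1 to 3 genes, at matched intron length, and with 39607 introns in 857 windows of 4 to 14 genes. Gene number counts only genes with a measured intron, so it reflects expression in these cells as well as gene density.

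The cells were E14 mouse embryonic stem cells of the 129/Ola background, grown in serum with leukemia inhibitory factor. They received control siRNA or an siRNA against Son, and RNA was taken 24 h after transfection. Each condition has 2 libraries of rRNA-depleted total RNA and 1 of Nanopore cDNA. No label says that the replicates came from separate cultures, so p-values measure only the spread between these samples.

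SON is a large RNA-binding protein with an arginine- and serine-rich region that forms the core of nuclear speckles, bodies rich in splicing factors. Active, gene-rich, GC-rich chromatin is known to lie close to speckles, and genes there tend to have many short introns, while gene-poor chromatin tends to lie at the nuclear lamina. Splicing factors find short introns largely across the intron and long introns largely across the exon. Distance to speckles was not measured here, and the number of genes with measured introns stands in for it only as a proxy.

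The total RNA read measures below are built from split reads, which span an exon-exon junction, and unsplit reads, which cross an exon-intron boundary. Splicing efficiency is the split share of all reads at an intron's 2 junctions, a fraction from 0 to 1. Read counts per intron are sums over both junctions unless a junction is named, so 1 split read can be counted at both. Son, the targeted gene, had 281 and 312 CPM of spliced reads (counts scaled to library size) in the controls and 94.6 and 102 in the knockdowns (296 ± 21.9 against 98.5 ± 5.49, SD, n = 2), a log2 fold change of -1.61 (SE 0.087, edgeR quasi-likelihood test, adjusted p = 3.7e-10). Libraries held 10640247 to 16012286 split and 696201 to 971880 unsplit reads at 5′ junctions. Of 10 stem cell markers 9 were listed, with summed levels of 4787 to 5035 CPM. Of 6 fibroblast markers 1 (Thy1) was listed, at no more than 2.19, of 5 endoderm markers 1 (Gata4), at no more than 2.89, of 4 neural markers 3, summing to 71.5 to 87.1, and of 3 mesoderm markers none.

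The exon sequences joined at the 6 gene-dense introns with the largest falls are shown first, because these are the junctions whose splicing efficiency changed most among the introns named by rule. Each line gives the last 30 bases of the upstream exon and the first 30 of the downstream exon in the coding strand, from GENCODE M21 transcripts matched by identifier, intron number and intron length. Capitals mark the last 3 bases before the junction and the first base after it.
Dgat1: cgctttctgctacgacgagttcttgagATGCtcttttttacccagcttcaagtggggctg
Ano8: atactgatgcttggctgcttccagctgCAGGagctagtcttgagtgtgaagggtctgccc
Ptprn: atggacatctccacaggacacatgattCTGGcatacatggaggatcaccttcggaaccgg
Pomgnt1: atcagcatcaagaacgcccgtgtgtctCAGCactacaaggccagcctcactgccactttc
Cpt1c: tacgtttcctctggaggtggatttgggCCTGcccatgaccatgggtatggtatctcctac
Tmem8: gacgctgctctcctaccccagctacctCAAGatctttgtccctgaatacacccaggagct

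For comparison, these are the junctions of gene-poor introns closest in length to the 6 above, in the same order and with the same marking. They were picked for length and coverage after the values had been seen.
Smarca5: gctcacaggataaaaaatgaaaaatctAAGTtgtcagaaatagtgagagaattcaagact
Relch: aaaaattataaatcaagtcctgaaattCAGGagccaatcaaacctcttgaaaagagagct
Sat1: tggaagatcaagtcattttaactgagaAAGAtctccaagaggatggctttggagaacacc
Tpr: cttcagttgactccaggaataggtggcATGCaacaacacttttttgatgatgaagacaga
Eif3f: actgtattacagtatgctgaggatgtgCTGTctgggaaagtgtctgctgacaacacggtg
Hnrnpa2b1: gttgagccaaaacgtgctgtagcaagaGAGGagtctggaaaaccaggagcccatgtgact

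The gene-dense introns of this set were 82 to 200 nt long, and GC made up 46.0% to 63.5% of up to 100 exon bases on each side. The gene-poor partners had 33.3% to 50.5%. The GC contrast was also present over all introns, with medians of 54.6% in gene-dense, 49.2% in intermediate and 47.1% in gene-poor windows. The median intron length was 493 nt in gene-dense, 1303 nt in intermediate and 1684 nt in gene-poor windows. The last 3 bases of the upstream exon were CAG in 25.5% of gene-dense and 22.3% of gene-poor introns, and the first base of the next exon was G in 51.0% and 47.2%. Flanking exons were alike in length, with medians of 124 and 125 nt upstream and 129 nt downstream in both classes. Median coverage was 195 reads per library and intron in gene-dense and 159 in gene-poor windows.

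Introns of gene-dense windows were spliced less efficiently after Son knockdown, while gene-poor introns of the same length changed by less than the SD between replicate libraries. Mean splicing efficiency of the 17321 gene-dense introns was 0.902 and 0.890 in the controls and 0.872 and 0.849 in the knockdowns, which is 0.896 ± 0.00904 against 0.860 ± 0.0161 (SD, n = 2). Both knockdown libraries lay below both controls. Gene-poor introns, weighted to the same length distribution, stood at 0.906 and 0.899 in the controls and 0.906 and 0.892 in the knockdowns, and these groups overlapped. Within each library the gene-dense introns differed from their length-matched gene-poor introns by -0.00390 and -0.00897 in the controls and by -0.0340 and -0.0436 in the knockdowns. The difference moved from -0.00644 ± 0.00358 to -0.0388 ± 0.00678 (SD, n = 2), a change of -0.0323. An exact two-sided permutation test over libraries gave p = 0.33, the smallest that 2 against 2 libraries allow, so this test cannot reach 0.05 here. Against length-matched introns of intermediate windows the difference changed by -0.0228.

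**Figure D1:**
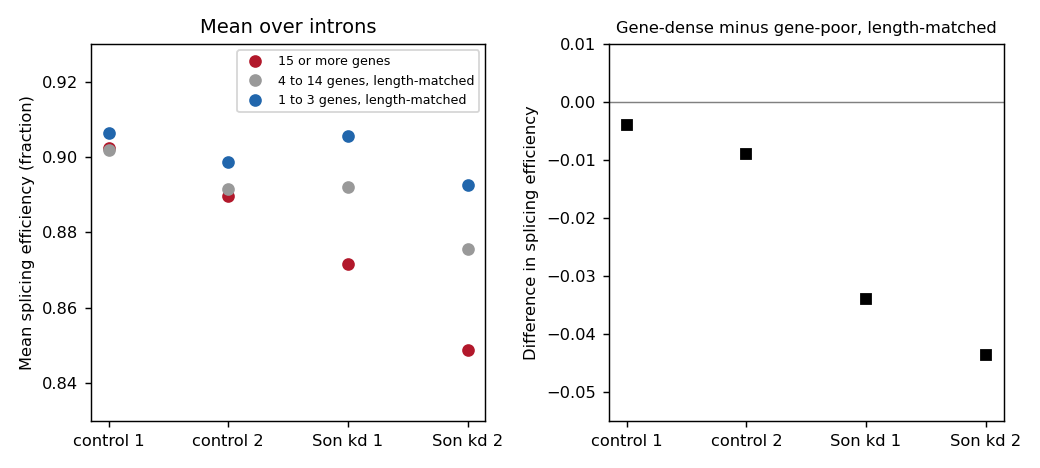
Mean splicing efficiency per library (left, fraction, axis not from 0) for gene-dense introns and for length-matched introns of the other 2 window classes, and the gene-dense minus gene-poor difference per library (right). Each point is 1 library. The difference lies at -0.00390 and -0.00897 in the controls and at -0.0340 and -0.0436 in the knockdowns.

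The size of the shift differed with coverage. Averaged over reads instead of introns, the length-matched change was -0.0143, and it was -0.0150 over introns with at least 100 reads at both junctions in every library. In these settings the mean gene-dense minus gene-poor difference in the controls was 0.00829 and 0.00406, against -0.00644 averaged over all introns. The sign of the control difference thus differed with the setting. With the gene-dense introns split into 5 equal bins of coverage, the change in mean splicing efficiency was -0.0569 in the least and -0.0113 in the most covered bin. In the same coverage ranges gene-poor introns changed by -0.00308 and 0.000060. With 1 intron per gene the length-matched change was -0.0226.

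Intron by intron, 16270 gene-dense introns were tested, those with 10 or more reads of each kind in the 4 libraries together. Of these, 814 fell in splicing efficiency and 3 rose (edgeR quasi-likelihood test on split and unsplit reads, Benjamini-Hochberg adjusted over all 63309 introns, threshold 0.05). Falls were therefore 5.00% of gene-dense introns, where 1.71% of all introns tested fell and 0.0442% rose. In intermediate windows 262 of 36715 fell (0.714%), and in gene-poor windows 8 of 10324 (0.0775%), with 5 rises. With the other classes weighted to the lengths of the gene-dense introns, the shares that fell were 5.00%, 1.55% and 0.251%. Of all 1084 introns that fell, 75.1% were gene-dense. The 814 introns belonged to 360 genes in 113 of the 142 windows, had a median length of 125 nt, and went from a median splicing efficiency of 0.938 to 0.748. With the 5′ junction alone 184 of 12953 tested fell, and with the 3′ junction alone 240 of 14017. Without adjustment (edgeR p under 0.05), 3014 gene-dense introns were lower, against 5135 of all 63309 and 244 of 10324 gene-poor introns. With limma 277 gene-poor introns were lower at unadjusted p under 0.05. The count of falls was 229 with DESeq2, 127 without control replicate 1, 351 without control replicate 2, 486 without knockdown replicate 2, 338 among introns with at least 100 reads at both junctions, and 0 with limma on the log odds, where 2626 had an unadjusted p under 0.05 against 3014 in edgeR.

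The shift was not limited to introns that passed the test. Both knockdown libraries lay below both controls in 38.1% of the tested gene-dense introns, against 24.3% of all introns tested, 20.4% in intermediate and 16.0% in gene-poor windows. The reverse order was found in 8.39% of gene-dense and 15.7% of gene-poor introns. Unsplit reads made up a larger share at both ends of the gene-dense introns after knockdown. Their share of reads at 5′ junctions was 4.59% and 5.46% in the controls and 5.92% and 7.14% in the knockdowns, and at 3′ junctions 4.82% and 5.75% against 6.21% and 7.43%. In gene-poor windows the 5′ share was 5.97% and 6.69% against 5.92% and 6.91%, so these groups overlapped.

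Length and gene number of the window each went with the size of the change. Among gene-dense introns of 53 to 92 nt, mean splicing efficiency went from 0.898 ± 0.0111 to 0.830 ± 0.0165 (SD, n = 2), a change of -0.0671, and 12.6% of those tested fell. Gene-poor introns of up to 92 nt changed by -0.00336, and 2 of 192 fell. At 310 to 493 nt the gene-dense change was -0.0350 and the gene-poor change -0.00233. Above 3157 nt they were -0.00878 and -0.00188, and 0.439% and 0.0670% of tested introns fell. In 10 of 10 length bins the change was more negative in gene-dense than in intermediate introns, and more negative in intermediate than in gene-poor ones.

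**Figure D2:**
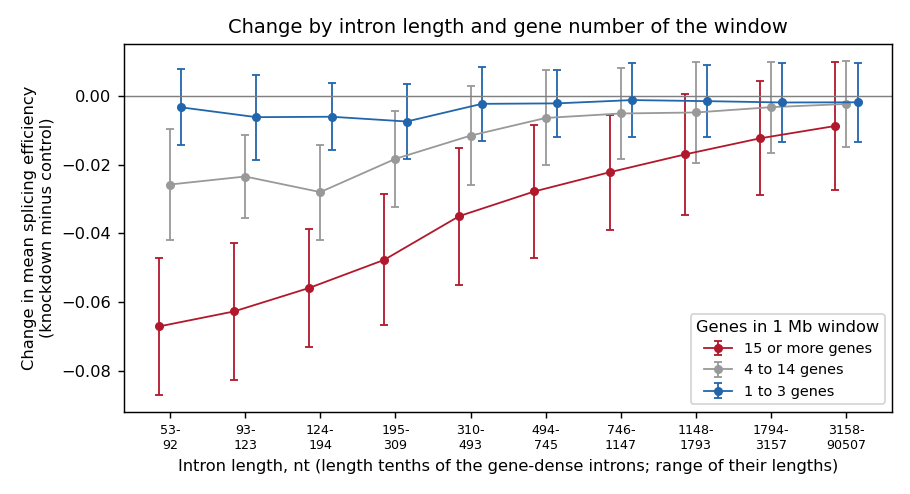
Change in mean splicing efficiency (knockdown minus control) in 10 length bins holding equal numbers of gene-dense introns, for the 3 window classes. Points are differences between means of 2 libraries, and bars are the root of the summed squares of the 2 group SDs. The gene-dense line runs from -0.0671 in the shortest bin to -0.00878 in the longest, below both other classes throughout.

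Along the number of genes in the window the change grew in steps. It was -0.00223 with 1 to 3 genes, -0.00364 with 4 to 6, -0.00668 with 7 to 9, -0.0144 with 10 to 14, -0.0270 with 15 to 19, -0.0332 with 20 to 24 and -0.0498 with 25 or more. Among introns of up to 493 nt the same steps ran from -0.00469 to -0.0627, and among longer introns from -0.00177 to -0.0278. The share of tested introns that fell was 3.34%, 4.94% and 7.34% in the 3 gene-dense steps. Just below the threshold, the 2299 introns in windows of 14 genes changed by -0.0231 and 2.05% of those tested fell. The 1844 introns in windows of 13 genes changed by -0.00940 and 26 of 1728 tested fell. Just above the threshold, the 2095 introns in windows of 15 genes changed by -0.0266 and 3.24% fell, and the 2095 in windows of 16 genes by -0.0211 and 2.74%, so neighbouring gene numbers were not strictly ordered. The Son gene itself lies in a window of 14 genes, and 4 of its 9 introns fell. Son is the siRNA target, and its spliced reads fell with the knockdown. Split reads enter splicing efficiency, so loss of spliced Son RNA was not separated from a change in its splicing.

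**Figure D3:**
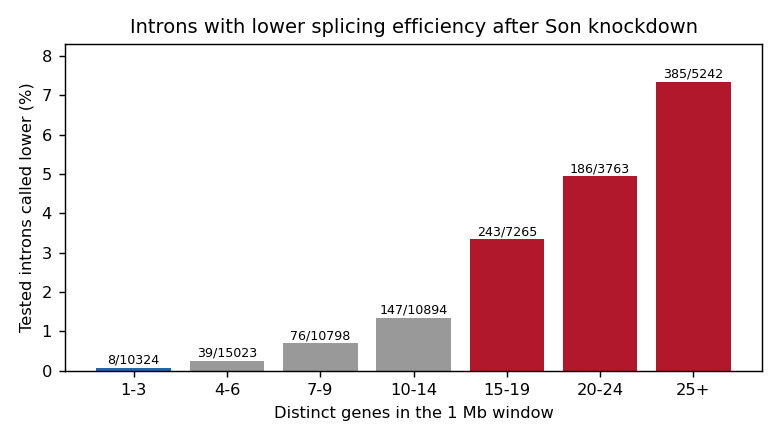
Share of tested introns with lower splicing efficiency after knockdown (percent, edgeR adjusted p under 0.05), by the number of genes in the 1 Mb window. The counts over the bars are introns that fell over introns tested; the share goes from 0.0775% at 1 to 3 genes to 7.34% at 25 or more.

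GC content of the flanking exons moved with the change as well. Of 5 equal bins of the gene-dense introns, the bin of lowest GC content (under 49.5%) changed by -0.0114 and the bin of highest (over 59.0%) by -0.0499. Gene-poor introns in the same ranges changed by -0.00119 and -0.00791. In 25 of 25 combinations of length and GC bins the change was more negative in gene-dense than in gene-poor and in intermediate introns. Among introns of up to 123 nt, the change from the lowest to the highest GC bin went from -0.0258 to -0.0773 in gene-dense and from -0.00309 to -0.0515 in intermediate introns. In gene-poor introns it was 0.00105 in the lowest bin and -0.0466 in the highest, which held only 21 introns. Matched for length and GC content together, the gene-dense minus gene-poor change was -0.0277.

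**Figure D4:**
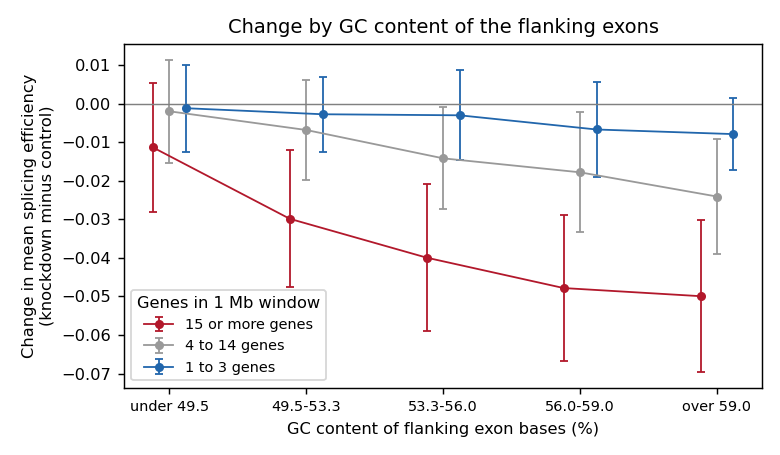
Change in mean splicing efficiency by GC content of up to 100 exon bases on each side of the junction (percent), for the 3 window classes. Points are differences between means of 2 libraries and bars combine the 2 group SDs as root of summed squares. Gene-dense introns go from -0.0114 at the lowest to -0.0499 at the highest GC content.

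The change also differed with the length of the other introns of the gene. Where a gene's median intron length was in the shortest of 5 equal bins, the change was -0.0672 in gene-dense and -0.0482 in intermediate windows. Gene-poor windows held only 57 such introns, and their mean did not move (0.826 in both groups). In the longest bin the changes were -0.00567, -0.00200 and -0.00140. With intron length, flanking GC content and gene median intron length matched together in 5 bins each, the change relative to gene-poor introns was -0.0244, over the 94.6% of gene-dense introns that had a match. Relative to intermediate introns it was -0.00933, against -0.0228 with length alone. Per library this last difference was 0.00126 and -0.00021 in the controls and -0.00604 and -0.0116 in the knockdowns, groups that did not overlap (exact permutation p = 0.33). The part of these features in the difference was not tested beyond this matching.

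Single introns lost most of their splicing. Dgat1 encodes an enzyme of the last step of triglyceride synthesis. Its intron 9 (GRCm39, chr15:76387629-76387717, minus strand, 89 nt, intron 9 of 16 within the coding sequence) lies in a window of 36 genes. Splicing efficiency was 0.894 and 0.851 in the controls and 0.317 and 0.203 in the knockdowns. Summed over both junctions, the knockdowns had 26 and 14 split against 56 and 55 unsplit counts. The log2 odds ratio of unsplit to split reads was 4.33 (SE 0.64, edgeR quasi-likelihood test, adjusted p = 9.1e-07). The junction of equal length in Smarca5, which encodes a chromatin remodelling ATPase, stood at 0.988 and 0.979 in the controls and 0.989 and 0.987 in the knockdowns.

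Ano8 encodes a protein that links the endoplasmic reticulum to the plasma membrane. Its intron 9 (chr8:71935055-71935150, 96 nt, 29 genes in the window) went from 0.778 and 0.957 to 0.160 and 0.446. Ptprn, a phosphatase-like protein of secretory vesicles, had intron 14 (chr1:75229804-75229903, 100 nt, 21 genes) at 0.795 and 0.659 against 0.281 and 0.0571. Pomgnt1, a glycosyltransferase that acts on dystroglycan, had intron 11 (chr4:116012344-116012425, 82 nt, 24 genes) at 0.758 and 0.784 against 0.304 and 0.139. In these introns the knockdown libraries lay far below the controls, and their rule of choice required groups that do not overlap. The length partners in Relch, Sat1 and Tpr stood at 0.938 or above in every library, and their changes were 0.0328, 0.00281 and -0.00013.

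Cpt1c, a carnitine palmitoyltransferase of neurons, had intron 17 (chr7:44609361-44609473, 113 nt, 38 genes) at 0.817 and 0.820 against 0.337 and 0.211. Tmem8, a membrane protein gene, had intron 4 (chr17:26336513-26336712, 200 nt, 29 genes) at 0.950 and 0.951 against 0.450 and 0.429, with a log2 odds ratio of 4.60 (SE 0.52, edgeR adjusted p = 8.9e-11). Both introns thus went from mostly spliced to mostly unspliced. Their partners were introns of Eif3f, a translation initiation factor subunit, and Hnrnpa2b1, an hnRNP protein. The Eif3f intron stood at 0.993 and 0.999 against 0.998 and 0.996, and the Hnrnpa2b1 intron at 0.889 and 0.904 against 0.891 and 0.879.

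The next 6 introns fell by 0.472 to 0.505. They were intron 7 of 1700061G19Rik, intron 3 of Mllt6 (a leukaemia translocation partner with a PHD finger), intron 14 of Clcn2 (a chloride channel), intron 2 of Dxo (an enzyme that removes faulty RNA caps), intron 5 of Rgl2 (an exchange factor for Ral) and intron 3 of Irf3 (a transcription factor of innate immunity). Their lengths were 82 to 254 nt. Mllt6 intron 3 went from 0.737 and 0.642 to 0.247 and 0.153, and Clcn2 intron 14 from 0.762 and 0.645 to 0.212 and 0.228. Of the 12 introns, none passed with limma (adjusted p 0.25 to 0.28). Ano8, Ptprn, Dxo and Irf3 also lost the call in 2, 1, 4 and 2 other alternatives.

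**Figure D5:**
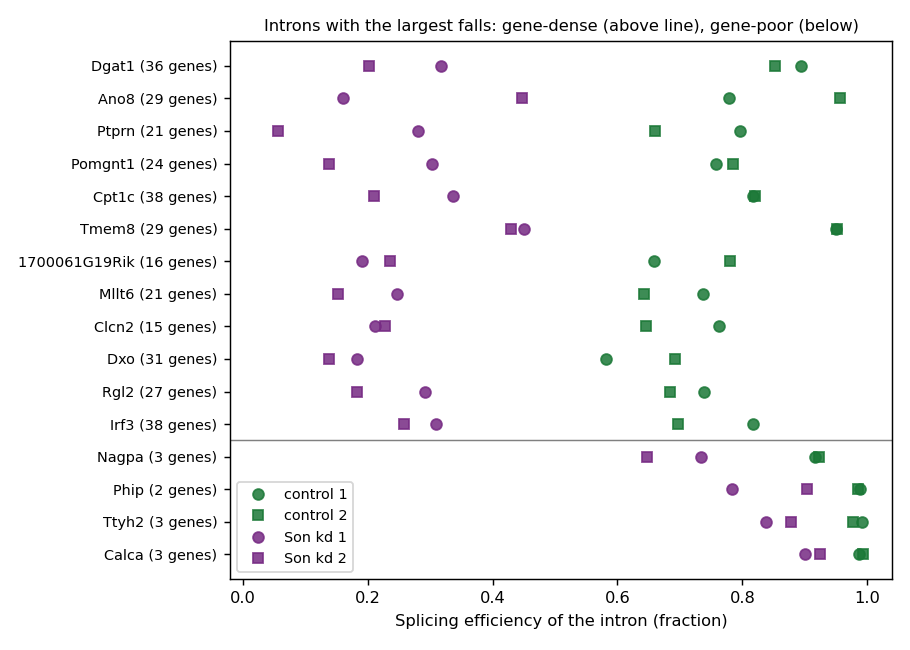
Splicing efficiency (fraction) of the 12 gene-dense introns with the largest falls and, below the line, the 4 gene-poor introns chosen by the same rule, with the number of genes in each window in brackets. Each symbol is 1 library. The gene-dense introns lie at 0.450 or lower after knockdown and the gene-poor ones at 0.648 or higher.

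By the same rule the 4 gene-poor introns with the largest falls were smaller changes. Nagpa, an enzyme of lysosomal protein sorting, had intron 6 at 0.916 and 0.922 against 0.734 and 0.648. Introns of Phip, Ttyh2 and Calca fell by 0.143, 0.126 and 0.078. These 4 calls were lost in 6 or 7 of 10 or 11 alternatives each. Only 2 rises met the rule in gene-dense windows. Intron 1 of Ino80e, a chromatin remodelling subunit, had 0 split and 114 and 82 unsplit reads in the controls, and 6 and 20 split against 70 and 78 unsplit reads after knockdown. Intron 1 of Man1b1, an endoplasmic reticulum mannosidase, had 155 and 125 split and 6 and 6 unsplit reads in the controls, and 140 and 110 split and 0 unsplit reads after knockdown. The Ino80e call was lost in 4 of the 10 alternatives that gave a value, and the Man1b1 call in 4 of 7.

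Summed over whole genes, 471 of 2634 gene-dense genes had lower splicing efficiency and 2 higher (17.9%; among all genes 6.98% fell and 0.128% rose). In gene-poor windows 5 of 1364 fell. The count was 137 without control replicate 1, 302 without control replicate 2, 285 without knockdown replicate 2 and 0 with limma, where 639 had an unadjusted p under 0.05. Falls often came in several introns of a gene: 187 of the 360 genes had 2 or more and 31 had 5 or more. Flna, the actin crosslinker filamin A, had 15 of 41 listed introns that fell, and Piezo1, a mechanosensitive channel, 14 of 41. Map4k1 (a kinase) had 11 of 23, Vars (valyl-tRNA synthetase) 10 of 16, Sbf1 9 of 30, Bcam (a laminin receptor) 8 of 10, Plxnb2 (a semaphorin receptor) 8 of 26 and Rtel1 (a telomere helicase) 8 of 22.

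A larger share of gene-dense genes than of all genes had fewer spliced reads. The median log2 fold change was -0.075 over gene-dense genes and 0.0054 over all genes. Of 2635 gene-dense genes tested, 416 fell (15.8%, against 6.76% of all genes) and 35 rose (1.33%, against 1.96%). At least 2-fold were 87 of the falls. In gene-poor windows 10 of 1409 fell and 33 rose. Without control replicate 1 or 2 the gene-dense falls were 241 and 242, without knockdown replicate 1 they were 694, and counted on each gene's best covered intron alone 206. The 35 rises became 9 without either control replicate, 151 and 70 without knockdown replicate 1 or 2, 19 with DESeq2 and 11 with the best covered intron.

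Among the 360 genes with an intron that fell, 245 (68.1%) had fewer spliced reads and 0 more, with a median log2 fold change of -0.49. Among the 2275 without one, 171 (7.52%) had fewer and 35 more, with a median log2 fold change of -0.044. Split reads enter both measures, so this association is a description. In Vars spliced reads went from 581 and 550 to 276 and 272 CPM (log2 fold change -1.07, SE 0.071, edgeR adjusted p = 6.6e-09), and in Bcam from 505 and 537 to 259 and 253. In both genes the 2 knockdown libraries were close to each other and far below the controls. Flna went from 1315 and 1349 to 964 and 960.

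The largest falls in spliced reads were in Ppp1r35, a centrosome protein gene with 1 listed intron, Pgghg, Ppm1m (a protein phosphatase), Gnptg (a subunit of the enzyme that tags lysosomal proteins) and Amdhd2 (an amino sugar deacetylase). Ppp1r35 went from 15.8 and 15.6 to 3.63 and 4.34 CPM of spliced reads, a log2 fold change of -2.01. Amdhd2, with 4 of 5 introns that fell, went from 30.7 and 31.1 to 10.1 and 8.88. Gnptg fell by 1.72 on the log2 scale with no single intron called, although the gene as a whole had a log2 odds ratio of 1.90 (edgeR adjusted p = 6.8e-05). The largest rises were in Ceacam20, Rdh13, Tatdn2, Rnf157 and Rab3il1, with log2 fold changes of 0.73 to 0.83, and none had an intron that fell. Ceacam20, a cell adhesion gene, went from 26.4 and 28.0 to 47.3 and 50.7 CPM.

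Gene-dense windows held a median of 118 introns, against 40 in intermediate and 11 in gene-poor windows. The window counts below were not matched for this. Taken window by window, mean splicing efficiency was lower after knockdown in 140 of the 142 gene-dense windows (98.6%). It was lower in 63.5% of all windows and 54.5% of gene-poor ones. For the 142 gene-dense windows the median change was -0.0307. Both knockdown libraries lay below both controls in 103 (72.5%, against 23.6% of all windows) and above both in none. With reads summed over a window, 8 windows passed as lower (5.63%, against 0.717% of all windows) and 0 as higher (0.0% of all). Without adjustment, 49 gene-dense windows were lower and 0 higher at p under 0.05 (edgeR), against 109 and 7 of all 1814 windows tested. No more than 1 of the 8 calls was made when any 1 library was left out, while DESeq2 called 34, scaling split and unsplit reads separately 76, and a fit on introns up to the median gene-dense length 49. The 10 windows with the most falling introns held 208 of the 814 (25.6%), 30 windows had 10 or more, and 29 had none.

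By log2 odds ratio, the called window with the largest change was chr15 from 89 to 90 Mb, with 17 genes and 104 introns of a median 126 nt. Its mean splicing efficiency was 0.925 and 0.903 in the controls and 0.817 and 0.782 in the knockdowns, and its log2 odds ratio was 1.36 (SE 0.22, edgeR adjusted p = 5.8e-07). Of its introns 21 fell, 9 in Sbf1, 8 in Plxnb2, 3 in Arsa and 1 in Hdac10. The window of Flna on chrX (73 to 74 Mb, 16 genes) went from 0.935 and 0.925 to 0.857 and 0.852, with 15 of its 21 falls in Flna. The window of Ptprn on chr1 (75 to 76 Mb) went from 0.893 and 0.877 to 0.819 and 0.782.

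The most falls were counted on chr17 from 35 to 36 Mb (28), chr19 from 6 to 7 Mb (24) and chr15 from 76 to 77 Mb (22). In the first, 10 were in Vars and 8 in Ehmt2, and in the second 7 were in Atg2a, an autophagy gene. The 3 windows with the most genes lie on chr7 (44 to 45 Mb, 38 genes), chr11 (69 to 70 Mb, 37 genes, among them Trp53 and Polr2a) and chr10 (80 to 81 Mb, 36 genes). They had 18, 11 and 15 falls, mean changes of -0.0609, -0.0507 and -0.0531, and none was called as a whole in the fit that called 8. In the 2 windows whose mean was not lower, chr13 from 67 to 68 Mb and chr17 from 33 to 34 Mb, each with 21 genes and no falling intron, the change was 0.00499 and 0.00703.

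Known groups of gene-dense genes are set beside the 5.00% of tested gene-dense introns that fell. Over all gene-dense genes, 360 of 2740 had an intron that fell and 15.8% had fewer spliced reads. The lists differ in intron length, with medians of 162.5 nt for the MHC class III neighbourhood, 287 nt for that of Malat1 and Neat1, 583 nt for speckle and SR protein genes and 246 nt for genes known to need SON, against 493 nt. The share of gene-dense introns that fell was 9.39% at 124 to 194 nt, 6.02% at 195 to 309 nt and 2.04% at 494 to 745 nt. Median changes in splicing efficiency are over listed introns, tested or not, and were -0.0136 for all gene-dense introns and -0.00378 for all introns. The MHC class III neighbourhood on chr17 is a gene cluster of complement, stress and RNA-processing genes. There 26 of 153 tested introns fell (median change -0.0242), in 8 of 26 genes, 10 of them in Vars and 8 in Ehmt2. Fewer spliced reads were found in 8 of the 26 genes. Intron 9 of Skiv2l, the helicase that feeds RNA to the exosome, went from 0.965 and 0.916 to 0.480 and 0.494. Intron 6 of Ehmt2, a histone H3 methyltransferase, was long for a falling intron (1650 nt) and went from 0.830 and 0.698 to 0.487 and 0.275. Spliced reads of Ehmt2 went from 365 and 348 to 162 and 150 CPM. Bag6 had 1 intron that fell but 473 and 476 against 478 and 445 CPM of spliced reads.

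Around Malat1 and Neat1 on chr19, whose noncoding RNAs sit in and beside speckles, 8 of 147 introns fell (median change -0.0240), in 5 of 23 genes, and 8 genes had fewer spliced reads. The share of introns was close to that of all gene-dense introns. An example was intron 15 of the nuclease gene Mus81, at 0.734 and 0.833 against 0.458 and 0.259. Intron 15 of Capn1, a calcium-activated protease, spread widely after knockdown, at 0.829 and 0.303.

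Among speckle and SR protein genes in gene-dense windows, 3 of 69 introns fell (median change -0.00359), all in Clk2, a kinase of SR proteins. Its intron 9 went from 0.663 and 0.622 to 0.228 and 0.217, and its spliced reads from 56.4 and 55.3 to 28.0 and 25.7 CPM. Of 13 genes, Clk2 fell and Srsf2 rose in splicing efficiency. Spliced reads fell in 2 genes, Clk2 and Ddx39b, and rose in 1, the speckle scaffold gene Srrm2, from 1323 and 1294 to 1524 and 1738 CPM. The 9 gene-dense genes known to need SON in human cells are a list chosen for its direction. Of their introns 19 of 102 fell (median change -0.0282) in 5 genes, and 5 genes had fewer spliced reads. Ehmt2 is among them, and its 8 falling introns are also counted in the MHC class III neighbourhood. Intron 5 of Hdac6, a tubulin deacetylase, went from 0.969 and 0.981 to 0.781 and 0.766.

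Long reads gave a view of whole transcripts in 1 library per condition, so no test was possible. The label of the long-read control names a knockdown sample as its starting material, which leaves its relation to the total RNA samples unclear. The reads totalled 3080426 in the control and 1874851 in the knockdown. Among gene-dense genes, the share of reads on transcript models annotated as retaining an intron was 9.34% (95% Wilson interval 9.26 to 9.42) in the control and 10.5% (10.4 to 10.6) in the knockdown. In gene-poor windows it was 12.8% (12.7 to 13.0) and 13.3% (13.1 to 13.5). In the 295 gene-dense genes with an intron that fell in total RNA it was 17.5% (17.1 to 17.9) and 24.7% (24.0 to 25.4), and in the other 1471 it was 8.75% and 9.66%. The intervals cover counting error only.

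Of 2319 gene-dense genes with enough long reads, 135 were at least 2-fold lower in the knockdown library (5.82%, against 4.15% of all genes) and 43 at least 2-fold higher (1.85%, against 2.01%). The median log2 ratio was -0.40 in gene-dense genes with an intron that fell and -0.01 in the others. Single genes had few long reads. Scaled to library size, the log2 ratio was -1.81 for Dxo (60 and 10 reads), -1.41 for Amdhd2 (89 and 20) and -1.08 for Ppp1r35 (50 and 14). Of the 12 genes named above for a falling intron, Ptprn had no long-read ratio. Ano8, Clcn2, Cpt1c, Tmem8 and 1700061G19Rik had ratios above 0, from 0.14 to 0.54. The rest had ratios below 0, from -1.81 to -0.32. In Ano8, 39 of 44 long reads in the control and 32 of 32 in the knockdown were on retained-intron models.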

How the data were processed

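The total RNA tables that the authors deposited give, per the labels, the output of SPLICE-q: read counts for each intron, split or unsplit, at its 5′ and 3′ junction, and a score. This deposited fraction equals the split reads divided by the sum of split and unsplit reads of the intron's junctions, and no listed junction had under 10 reads. For long reads, the authors deposited counts per transcript. The submitters' processing notes name GRCm39, SAMtools and minimap2, with no role. The aligner of the short reads, the annotation, SPLICE-q settings and strand handling are not given in the sources used here, so introns of overlapping genes (3.83% of gene-dense introns) are uncertain.

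Of 85015 introns listed in any library, the 68322 listed in all 4 were used. Lengths are the distance between the 2 deposited junction positions, and coordinates are GRCm39. Symbols, exon sequences and transcript types came from GENCODE M21, an annotation of another build, matched by identifier only; 99.6% of the introns compared had equal length there.

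Splicing efficiency was tested with edgeR 4.0.16 (quasi-likelihood, R 4.3.3): split and unsplit reads were 2 columns per library, with library terms and an unsplit-by-knockdown term, for introns with at least 10 reads of each kind. Counts of both junctions were summed, and the fit does not allow for reads counted at both. A positive log2 odds ratio means more unsplit reads per split read after knockdown. Genes and windows were tested likewise on summed reads. Spliced reads per gene (5′ junctions) were tested with TMM scaling and edgeR's expression filter, and levels are in CPM, not per length. Each p-value was adjusted by Benjamini-Hochberg over all features tested. Length matching weighted the other introns to the 10 length bins of the gene-dense introns. Long-read genes needed 20 reads, with a pseudocount of 0.5. DESeq2 1.42.0 and limma 3.58.1 were alternatives. Scripts were tested on simulated data.

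Named introns were, among called gene-dense introns whose groups do not overlap and whose 4 libraries each have 50 reads or more, the 12 largest falls and up to 4 largest rises, 1 per gene, and the 4 largest gene-poor falls. Windows named were the 3 with most genes, the 5 with most falls and the 3 largest log2 odds ratios among called windows, and genes the 5 largest falls and rises in spliced reads. The members, lists and named-gene rules were chosen with earlier results of these data known. Extreme windows, long-read examples and members named from lists were chosen after their values were seen. Sample groups and replicate numbers came from the titles and treatment labels.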

Additional observations from a re-analysis of the deposited data

How the results depend on the processing

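The gene-dense minus length-matched gene-poor change (-0.0323) stayed negative in every alternative run. It was -0.0240 with dense windows set at 10 genes and -0.0392 at 20, -0.0226 with 1 intron per gene, -0.0143 with reads summed over introns (dense introns alone -0.0152) and -0.0150 with at least 100 reads at both junctions (dense alone -0.0155). Matched also for flanking GC content and gene median intron length in 3 bins each, an alternative added after seeing the data, it was -0.0263. Leaving out 1 library gave -0.0371 to -0.0275, with -0.0471 to -0.0244 for the dense introns and -0.0100 to 0.0032 for the matched gene-poor introns. The causes were not tested.

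Introns that fell or rose in dense windows numbered 229 and 1 with DESeq2, 0 and 0 with limma on the log odds, 184 and 0 at the 5′ junction alone, 240 and 0 at the 3′ junction alone, 338 and 0 with at least 100 reads at both junctions, and 104 and 0 with 1 intron per gene. Gene-poor falls (8) were 0, 0, 2, 1, 3 and 2 in the same order. The share of tested dense introns that fell was 1.42% and 1.71% at single junctions, 5.57% in deeper introns and 4.09% with 1 intron per gene. Rises were 9 with split and unsplit reads scaled separately, 7 with dense windows of 10 genes and 5 with shifted window edges. Leaving out 1 library gave 127 to 986 falls, 0 to 6 rises and 1 to 17 gene-poor falls.

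Dense genes with lower or higher splicing efficiency (471 and 2) were 0 and 0 with limma. Higher genes were 0 with DESeq2, 15 with separate scaling, and 7 and 1 with windows of 10 and 20 genes. Leaving out 1 library gave 137 to 493 lower and 0 to 5 higher. Dense genes with fewer spliced reads (416) were 206 on the best covered intron and 241 to 694 without 1 library. Those with more (35) were 19 with DESeq2, 11 on the best covered intron, 65 and 18 with windows of 10 and 20 genes, and 9 to 151 without 1 library. Windows called lower (8) were 34 with DESeq2, 76 with separate scaling, 49 on introns up to the median dense length, and 0 to 1 without 1 library. The long-read change of 1.13 points was 1.35 without the 100 most abundant transcripts, 0.912 without genes with a falling intron, and 0.784 and 0.778 with windows of 10 and 20 genes.

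The labels do not say what a replicate number marks. The correlation of deviations of same-numbered replicates was 0.0498 over introns (0.0764 in dense windows), with only 2 pairs, although mean splicing efficiency was higher in replicate 1 than in replicate 2 of both groups. The numbers were therefore not taken as pairs. With a replicate block, dense introns that fell or rose were 1153 and 6, gene-poor falls 15, genes with lower or higher splicing efficiency 649 and 9, genes with fewer or more spliced reads 471 and 53, and windows called lower 105.

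Depth limits single introns: an intron with few reads can pass only with a large change, and 93.9% of the gene-dense introns had enough reads to be tested.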

Other observations

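Position in the transcript moved with the change in gene-dense windows. Over 14134 internal introns mean splicing efficiency went from 0.906 ± 0.00896 to 0.867 ± 0.0161 (SD, n = 2), a change of -0.0382. Over 1787 last introns the change was -0.0302 and over 1340 first introns -0.0169. First introns were longer, with a median of 1694 nt against 444 nt for internal ones, and these groups were not matched by length.

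By chromosome, the change of gene-dense introns was most negative on chrX (-0.0593 over 202 introns in 2 windows, 106 of them in that of Flna) and on chr8 (-0.0533 over 1329 introns). It was -0.0193 over 356 introns on chr6 and -0.0214 over 1287 introns on chr4. No test of the chromosomes against each other was made.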
